A study of Homo sapiens with 6 samples.

Results

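miR-106b and miR-93 are neighbouring miRNA hairpins inside an intron of MCM7, and the 4 mature arms cut from them were followed from total RNA into RNA pulled down with an antibody against N7-methylguanosine (m7G). The members were the rows named hsa-miR-106b-5p, hsa-miR-106b-3p, hsa-miR-93-5p and hsa-miR-93-3p, 4 of the 2588 mature miRNAs listed in both count tables. miR-25, the last hairpin of the cluster, was kept apart and serves only for comparison. All libraries are labelled as A549, a line derived from a human lung adenocarcinoma, in which an shRNA against METTL1, an RNA methyltransferase that installs m7G, is switched on by doxycycline. Both groups share the METTL1 knockdown. The labels of both groups give 5 days of doxycycline at 200 ng/ml. The groups were total RNA (input, 3 libraries) and m7G-RIP (heat-denatured RNA immunoprecipitated with the anti-m7G antibody, 3 libraries). The line was made by lentiviral transduction and puromycin selection, and which METTL1 shRNA was used for these libraries is not given in the labels. The growth text of the m7G-RIP samples names the medium of Caco-2 cells, whereas their titles and cell line labels say A549. No IgG pulldown and no cells with METTL1 intact were analysed here. The comparison therefore shows how m7G-RIP libraries differ from total RNA in knockdown cells, and not what METTL1 does. It cannot tell binding by the antibody apart from other carry-over in the pulldown. The counts of each group were deposited separately, so a difference in library preparation cannot be told apart from the pulldown either. METTL1 and protein-coding markers of the cell type were not analysed here, since the tables list miRNAs.

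A primary miRNA transcript folds into a hairpin that DROSHA and DICER cut into a duplex of a 5p and a 3p strand, and one strand is usually loaded into an Argonaute protein while the other is degraded. The loaded strand recognises mRNAs mainly through its seed, bases 2 to 8. MCM7 encodes a subunit of the replicative helicase and is transcribed in proliferating cells, and its intronic cluster is a paralogue of the miRNA cluster in MIR17HG, known for promoting proliferation. Internal m7G in a miRNA is an internal base modification, distinct from the cap of an mRNA, and the antibody was used to separate miRNAs that carry it.

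The mature sequences of the members are shown because their arms responded differently to the pulldown. They are from RefSeq (GRCh38.p14), written 5′ to 3′ with the seed in capitals.
miR-106b-5p: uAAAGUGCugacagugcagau
miR-106b-3p: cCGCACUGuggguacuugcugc
miR-93-5p: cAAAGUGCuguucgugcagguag
miR-93-3p: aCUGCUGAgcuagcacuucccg
All lie on the minus strand of chromosome 7. miR-106b-5p is at chr7:100094043-100094063, miR-106b-3p at chr7:100094002-100094023, miR-93-5p at chr7:100093815-100093837 and miR-93-3p at chr7:100093777-100093798. Both hairpins lie in intron 13 of the 15-exon reference transcript of MCM7 (GENCODE release 44), at chr7:100093402-100094172, with 145 bases between them. In 1 other MCM7 transcript, a nonsense-mediated decay form, an exon overlaps the MIR93 hairpin, while MIR106B is intronic in every MCM7 transcript that spans it. Each member matched chromosomes 1 to 22, X and Y exactly at 1 place. No other listed mature miRNA with a sequence was within 1 edit of a member. Among the nearest were miR-106a-5p for miR-106b-5p, at 5 edits, and miR-17-5p for miR-93-5p, at 3 edits.

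Both 5p arms carry the seed AAAGUGC, and 6 other listed miRNAs share it. The 4 of these that were detected are shown for comparison of the bases after the seed.
miR-17-5p: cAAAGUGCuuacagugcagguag
miR-20a-5p: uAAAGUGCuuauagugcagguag
miR-20b-5p: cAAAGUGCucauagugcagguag
miR-106a-5p: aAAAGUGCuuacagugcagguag
miR-93-5p and these 4 have 23 bases and a longest run of 2 G, whereas miR-106b-5p is annotated with 21 bases and has no G next to another G. The seeds of miR-106b-3p and miR-93-3p were shared with 0 other listed miRNAs that have a RefSeq sequence.

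The total RNA libraries held 9155690 to 10753443 counts and the m7G-RIP libraries 2649238 to 3106556. Levels are CPM, counts relative to the total of the library, after TMM scaling, in which each library is set to a common scale by the bulk of its miRNAs. A read spans a whole mature miRNA, so levels were not divided by length. The amount of RNA recovered is not known, and each ratio therefore sets a miRNA against the rest of its own library. The quasi-likelihood test of edgeR was run on 620 miRNAs, of which 23.5% were enriched in m7G-RIP and 29.2% depleted (adjusted p under 0.05). Enriched miRNAs made up 44.6% of the calls with TMM scaling, 60.5% with library size alone and 57.3% with library sizes that left out the 10 most abundant miRNAs.

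All 4 arms passed the expression filter, miR-106b-5p through total RNA, since 2 of its 3 m7G-RIP libraries reached the filter's level. miR-93-5p and miR-93-3p were depleted in m7G-RIP, and for miR-106b-3p the difference did not exceed the replicate spread. miR-106b-5p was lower in every m7G-RIP library, but no call is drawn from it, since it passed the filter through total RNA. miR-106b-5p fell by 5.17 on the log2 scale, miR-93-5p by 2.10 and miR-93-3p by 1.97. miR-106b-3p, cut from the same hairpin as miR-106b-5p, had a log2 ratio of 0.17 that did not pass the test. Its call and direction changed with the scaling and the filter. For both miR-93 arms, every m7G-RIP library lay below every total RNA library, a pattern seen in 36.5% of all miRNAs tested. The reverse pattern, every m7G-RIP library above, was seen in 29.5% of all miRNAs and in 0 of the 4 arms. The depleted arms, both from the miR-93 hairpin, stand beside a background of 29.2% and are a few members of 1 transcript.

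miR-106b-5p carries the seed of the family but was a minor product of its hairpin. In total RNA, hsa-miR-106b-5p had 738, 776 and 459 counts, or 83.3, 92.2 and 60.4 CPM in replicates 1, 2 and 3. In m7G-RIP it had 5, 12 and 5 counts, or 1.47, 3.77 and 1.34 CPM. All m7G-RIP libraries were far below the lowest total RNA library, and m7G-RIP replicate 2 stood above the other two of its group. The mean went from 78.6 ± 16.4 to 2.19 ± 1.37 CPM (SD, n = 3). The fitted log2 ratio was -5.17 (SE 0.43, 95% interval -6.16 to -4.19), or 36.1-fold lower. This arm passed the expression filter through total RNA, so the ratio is given as a size and no call or rank is drawn from it. Because the m7G-RIP value rests on so few reads its size is imprecise, and without m7G-RIP replicate 2 the log2 ratio was -5.95.

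miR-106b-3p was the most abundant of the 4 arms. hsa-miR-106b-3p had 1360.3, 1162 and 1363 CPM in the total RNA libraries and 1245, 1507 and 1632 CPM in the m7G-RIP libraries. The groups overlapped, with m7G-RIP replicate 1 inside the range of total RNA. The means were 1295 ± 115 and 1461 ± 198 CPM (SD, n = 3), and the fitted log2 ratio was 0.17 (SE 0.13, 95% interval -0.13 to 0.47, edgeR adjusted p 0.296). The interval holds no change as well as a rise of up to 0.47. The ratio sat near the middle of all miRNAs tested, with 54.7% of them lower and a median over all of -0.074. Its call and its direction depended on the processing. It was 0.72 (edgeR adjusted p 0.000824) with library size alone, where the median of all miRNAs also moved up by 0.55, and -0.11 (edgeR adjusted p 0.562) with no filter on low counts. It was -0.015 without m7G-RIP replicate 2 and -0.13 without m7G-RIP replicate 3, neither past the threshold.

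Both arms of miR-93 fell. hsa-miR-93-5p, which carries the same seed as miR-106b-5p, had 900.5, 920.1 and 833 CPM in total RNA and 159, 254 and 204 CPM in m7G-RIP. All 3 m7G-RIP libraries were well below the lowest input library. The means were 884 ± 45.9 and 206 ± 47.5 CPM (SD, n = 3), and the fitted log2 ratio was -2.10 (SE 0.18, 95% interval -2.50 to -1.70, edgeR adjusted p 1.09e-05), or 4.30-fold lower. hsa-miR-93-3p, the scarce strand of the hairpin, had 29.8, 27.1 and 24.7 CPM in total RNA and 7.07, 5.96 and 7.76 CPM in m7G-RIP, where it rested on 24, 19 and 29 counts. The replicates of each group lay close together and the groups did not overlap. The means were 27.2 ± 2.54 and 6.93 ± 0.907 CPM (SD, n = 3), and the fitted log2 ratio was -1.97 (SE 0.35, 95% interval -2.75 to -1.18, edgeR adjusted p 0.00122), or 3.91-fold lower. Of all miRNAs tested, 19.2% had a lower ratio than miR-93-5p and 21.9% a lower ratio than miR-93-3p.

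**Figure D1:**
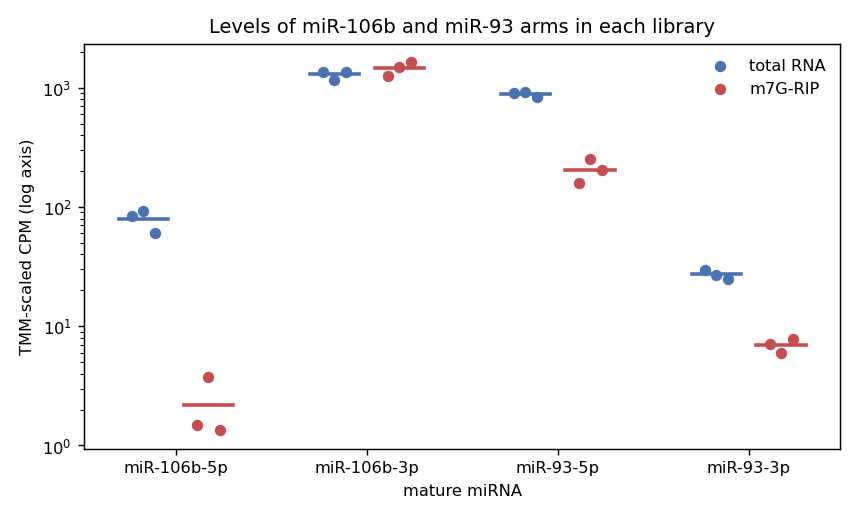
Level of each arm in each library, in TMM-scaled CPM on a log axis, with total RNA in blue and m7G-RIP in red. Points are single libraries (n = 3 per group, replicates 1 to 3 from left to right) and lines are group means. miR-106b-3p overlaps between groups, and the other arms are lower in every m7G-RIP library.

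The order of the levels differed between the groups. In total RNA it was miR-106b-3p, miR-93-5p, miR-106b-5p and miR-93-3p from high to low, and the ranges of neighbours in that order did not overlap. In m7G-RIP the last 2 places were exchanged, since miR-106b-5p at 1.34 to 3.77 CPM lay below miR-93-3p at 5.96 to 7.76 CPM. Within a library, miR-106b-5p had 2.44 to 3.40 times the counts of miR-93-3p in total RNA and 0.172 to 0.632 times in m7G-RIP. No call is drawn from this exchange, since miR-106b-5p passed the filter through total RNA. Among all miRNAs, miR-106b-3p ranked 51st by mean level in total RNA and 40th in m7G-RIP, while miR-106b-5p ranked 178th and 589th.

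The arms of each hairpin were compared within each library, since a ratio of 3p to 5p counts does not depend on scaling. In miR-106b the 3p arm made up 94.2%, 92.6% and 95.8% of the hairpin's counts in total RNA and 99.9%, 99.8% and 99.9% in m7G-RIP. The 5p arm thus took 4.24% to 7.35% of the hairpin's counts in total RNA and 0.0820% to 0.249% in m7G-RIP. The 95% exact binomial (Clopper-Pearson) interval of the 3p share was 99.6% to 99.9% in m7G-RIP replicate 2, the lowest of its group, and 95.4% to 96.1% in total RNA replicate 3, the highest of its group. These intervals cover counting error only. The mean 3p share was 94.2% ± 1.56 in total RNA and 99.9% ± 0.0881 in m7G-RIP (SD, n = 3). This share is given as a size and no call is drawn from it, since the 5p arm passed the filter through total RNA. The two-sided exact permutation test over libraries has a lower limit of p = 0.1 with 3 in each group.

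In miR-93 the 5p arm dominated instead. The 3p arm took 3.20%, 2.86% and 2.88% of the counts in total RNA and 4.25%, 2.29% and 3.67% in m7G-RIP. The groups overlapped, and the means were 2.98% ± 0.191 and 3.40% ± 1.00 (SD, n = 3; exact permutation p 0.6). With 19 to 29 counts behind the 3p arm in m7G-RIP, the intervals of single libraries ran from 1.39% to 6.25%.

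The change in arm ratio was tested with limma across all 139 hairpin names with both arms kept by the expression filter, on log2 of the 3p over the 5p counts with 0.5 added to each. The ratio shifted toward 3p in m7G-RIP for 15.8% of these hairpins and toward 5p for 23.0% (limma adjusted p under 0.05). miR-106b shifted toward 3p by 5.37 (SE 0.49, 95% interval 4.12 to 6.61), from a mean log2 ratio of 4.06 ± 0.421 to 9.43 ± 0.777 (SD, n = 3). Its 5p arm passed the filter through total RNA, so no call is drawn from this shift. No place in the order of shifts is given for miR-106b, since its 5p arm rested on 5, 12 and 5 counts in m7G-RIP. With 5 added to each count its shift was 4.66. miR-93 shifted by 0.18 (SE 0.32, 95% interval -0.63 to 0.98, limma adjusted p 0.67), which was not past the threshold. Its neighbours in the order were miR-10a at 0.25, miR-629 at 0.24, miR-374a at 0.14 and miR-424 at 0.085. The median absolute shift of all hairpins was 1.74, so the miR-93 shift was small beside the others tested.

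**Figure D2:**
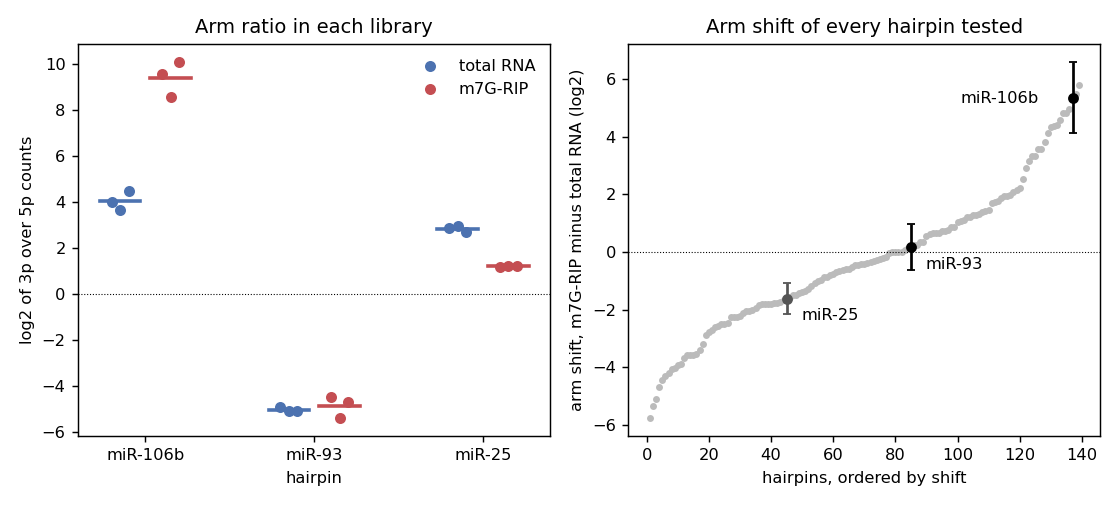
Left, log2 of 3p over 5p counts in each library (n = 3 per group, lines are means) for the hairpins of the MCM7 cluster. Right, arm shift of the 139 hairpins tested in order of size, with 95% intervals for the named ones. miR-93 lies at 0.18 and miR-25 at -1.63. miR-106b lies at 5.37, from which no call or place in the order is drawn.

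The same arm of the neighbouring hairpins was compared in the same way. miR-106b-5p had 0.0925, 0.1002 and 0.0725 times the counts of miR-93-5p in total RNA and 0.00924, 0.0148 and 0.00656 times in m7G-RIP, a geometric mean ratio 9.08-fold lower, although both share a seed. miR-106b-3p had 45.7, 42.9 and 55.1 times the counts of miR-93-3p in total RNA and 176, 253 and 210.2 times in m7G-RIP, a geometric mean ratio 4.42-fold higher. In the ratio of the 3p arms the groups did not overlap. It had a p of 0.1 in the exact permutation test, the lowest this design can give, and 0.133 when adjusted over the 4 ratios compared. The ratios that hold miR-106b-5p are given as sizes. No call is drawn from them, since that arm passed the filter through total RNA. The ratio of the miR-93 arms had an exact permutation p of 0.6.

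The cluster partner miR-25 moved differently again. miR-25-5p rose from 453 ± 44.4 to 1260.4 ± 94.2 CPM (SD, n = 3), with a fitted log2 ratio of 1.48 (edgeR adjusted p 9.91e-06). miR-25-3p had 3267 ± 30.2 and 2959 ± 265 CPM (SD, n = 3), with a fitted log2 ratio of -0.14 (edgeR adjusted p 0.266). miR-25-3p was past the threshold as enriched with library size alone, at 0.41, and without the 10 most abundant miRNAs, at 0.31, and as depleted with no filter, at -0.42, and without m7G-RIP replicate 1, 2 or 3. The miR-25 arm ratio shifted toward 5p by 1.63 (limma adjusted p 0.00348). Of the 6 arms of the intron, miR-93-5p and miR-93-3p were therefore depleted and miR-25-5p was enriched. Over all miRNAs tested 29.2% were depleted and 23.5% enriched. miR-106b-3p and miR-25-3p did not pass the test, and no call is drawn from miR-106b-5p.

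The miRNAs that share the AAAGUGC seed with miR-106b-5p and miR-93-5p come from other clusters, miR-17 and miR-20a from MIR17HG and miR-106a and miR-20b from the X chromosome. Of the 6 relatives, 4 were tested, and miR-17-5p, miR-20a-5p and miR-106a-5p were depleted, beside 29.2% of all miRNAs. miR-20b-5p passed the expression filter through total RNA alone, so no call is drawn from it. miR-20a-5p, the most abundant, went from 2453 ± 189 to 325 ± 35.3 CPM (SD, n = 3), and its fitted log2 ratio was -2.92 (edgeR adjusted p 2.92e-07). The fitted log2 ratio was -2.58 for miR-17-5p (edgeR adjusted p 2.56e-05) and -2.42 for miR-106a-5p (edgeR adjusted p 0.00277). miR-20b-5p went from 6.44 ± 0.9495 to 0.793 ± 0.401 CPM (SD, n = 3) and rested on 2 to 4 counts in each m7G-RIP library. miR-519d-3p and miR-526b-3p, which belong to a placental cluster, had 0 counts in every library, which allows up to 0.394 CPM in a total RNA library and 0.942 CPM in an m7G-RIP library. Over the tested miRNAs with this seed from which a call is drawn, the log2 ratios ran from -2.92 to -2.10. miR-93-5p was the highest of them. miR-106b-5p, at -5.17, and miR-20b-5p are left out of this range.

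Within the summed counts of these 6 miRNAs miR-93-5p held a larger share in m7G-RIP. It took 21.4% ± 0.582 in total RNA and 31.3% ± 1.17 in m7G-RIP (SD, n = 3, exact permutation p 0.1), and the groups did not overlap. miR-106b-5p took 1.89% ± 0.293 and 0.321% ± 0.141 (SD, n = 3). No call is drawn from the miR-106b-5p share, since that arm passed the filter through total RNA. When the family's counts were summed into 1 row, so that the division of reads among its members did not enter, the log2 ratio was -2.66 (edgeR adjusted p 2.07e-06).

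The other arms of the relatives were scarce. Of 6 listed, only miR-17-3p passed the filter, with 73, 52 and 74 counts in total RNA and 0, 1 and 7 counts in the m7G-RIP libraries. It passed through total RNA alone, so no call is drawn from it or from the miR-17 arm ratio. miR-20a-3p had 1 to 10 counts in total RNA and 0 in m7G-RIP, and the other 4 had 0 counts in every library.

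**Figure D3:**
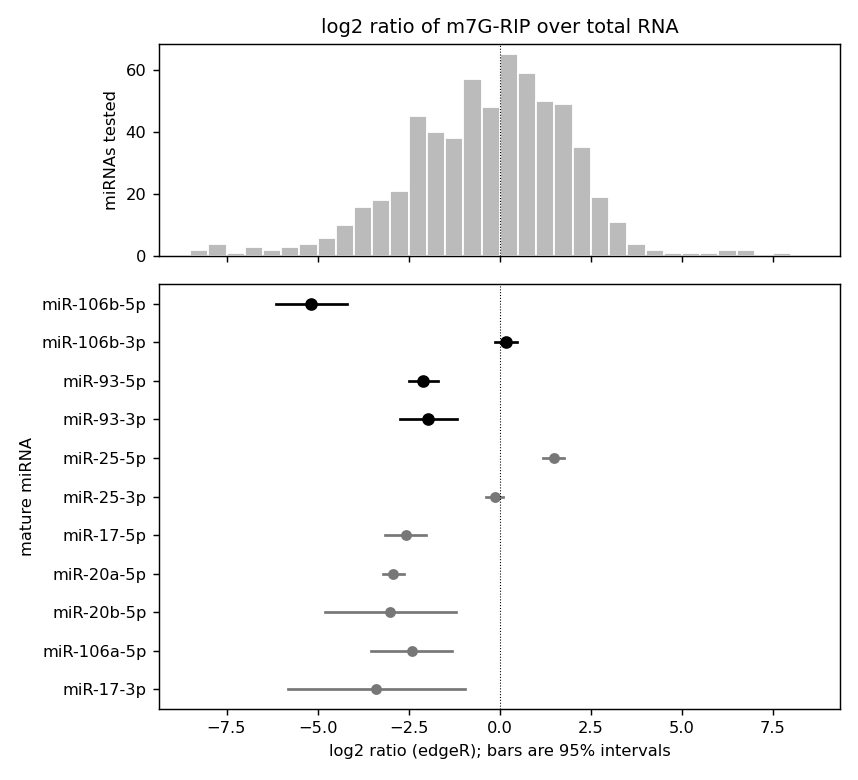
Top, log2 ratios of m7G-RIP over total RNA for the 620 miRNAs tested (bins of 0.5). Bottom, edgeR log2 ratios with 95% intervals for the 4 arms (black) and for miR-25 and the seed relatives (grey). The miRNAs with the AAAGUGC seed from which a call is drawn lie from -2.92 to -2.10. No call is drawn from miR-106b-5p, miR-20b-5p or miR-17-3p.

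Base composition was described because m7G is a mark on guanosine and the arms of a hairpin differ in base content. RefSeq mature sequences were matched for 557 of the 620 miRNAs tested (89.8%). Across these, the log2 ratio was higher at higher G content (Pearson r = 0.410, Spearman rho = 0.436) and lower at higher A content (r = -0.212). Correlations with C and U content were -0.0912 and -0.196. These describe miRNAs measured in the same 6 libraries, whose base shares sum to a whole and which are not independent replicates. miR-106b-3p holds 7 G in 22 bases (31.8%) and 2 A (9.09%), and 9.69% of the 557 had less A. miR-106b-5p holds 6 G in 21 bases (28.6%) and 7 A (33.3%), and 87.1% of the 557 had less A. The G contents of these arms thus lay close together, near the median of 27.8%, whereas their log2 ratios were 0.17 and -5.17.

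The arms of miR-93 were described in the same way. miR-93-5p holds 8 G in 23 bases (34.8%) and miR-93-3p holds 5 G in 22 (22.7%), with log2 ratios of -2.10 and -1.97. Across 122 hairpins with both arms measured and matched, the arm shift toward 3p was larger where the 3p arm had more G than the 5p arm (r = 0.464, rho = 0.479). The difference was 3.25 percentage points for miR-106b, above 63.1% of these hairpins, and -12.1 points for miR-93. For A content the difference was -24.2 points in miR-106b, and 4.92% of the hairpins had a more negative one. The C difference was 17.5 points in miR-106b and 19.0 points in miR-93. Over all hairpins the correlation of the arm shift was -0.0736 with the A difference, -0.299 with the C difference and -0.177 with the U difference.

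Runs of G were described with the motif GGG, searched in the mature RNA strand only. It was present in 35.7% of the 557 miRNAs, whose median log2 ratio was 0.87, with an interquartile range of -0.58 to 1.89. Those without it had a median of -0.55 and an interquartile range of -2.07 to 0.77. Of the 4 arms only miR-106b-3p holds GGG, and its ratio of 0.17 lay within the interquartile range of both sets. miR-106b-5p and miR-93-3p have no G next to another, and miR-93-5p has a longest run of 2. A score of G richness and skew was taken from the study's methods (the highest mean over 20 bases, with G runs counted positive and C runs negative). It was computed here on mature strands, which hold few windows of that length, whereas the study compared it over primary hairpins. miR-106b-3p had 0.40, miR-93-5p 0.35, miR-106b-5p 0.15 and miR-93-3p -0.35, around a median of 0.20 over the 557. Across the 557 the log2 ratio was higher at a higher score (Pearson r = 0.278, Spearman rho = 0.384). Whether the score bears on the ratios of the 4 arms was not tested.

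**Figure D4:**
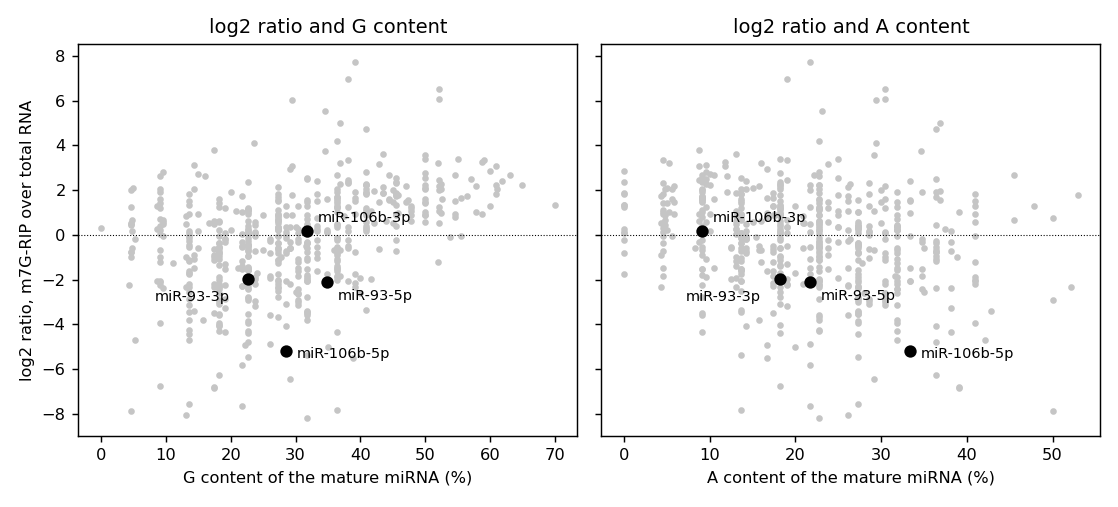
log2 ratio of m7G-RIP over total RNA against G content (left) and A content (right) of the mature miRNA, for 557 tested miRNAs with a RefSeq sequence (grey) and the 4 arms (black). The miR-106b arms have similar G contents, 28.6% and 31.8%, and differ in A content, 33.3% and 9.09%.

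The miRNAs whose levels over the 6 libraries most resembled each arm were ranked by the root mean square difference of log2 CPM after centring, taking only miRNAs that reached 10 counts in each library. This likeness follows the difference between the 2 groups above all, and is a description. For miR-106b-5p they were miR-101-3p (0.51), miR-381-3p (0.63) and miR-21-3p (0.64), with log2 ratios of -4.33, -5.43 and -4.78. For miR-106b-3p they were miR-1269b (0.12), miR-941 (0.12) and miR-152-3p (0.12), none past the threshold. For miR-93-5p they were miR-27b-3p (0.096), miR-9-5p (0.12) and miR-30c-5p (0.13), with log2 ratios of -2.18, -2.28 and -2.05. For miR-93-3p they were miR-140-3p (0.12), miR-27a-3p (0.14) and miR-4521 (0.16), with log2 ratios of -2.06, -1.99 and -1.96. miR-106b-5p did not itself reach 10 counts in every library, so its distances are not to be set beside those of the other arms.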

How the data were processed

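Small RNA libraries (NEBNext, stranded single-end reads) of A549 METTL1 knockdown cells were compared, 3 of total RNA and 3 of m7G-RIP. The deposited tables hold raw counts per mature miRNA, summarised by the authors from aligned reads. Their methods name Trimmomatic, end-to-end alignment to GRCh38 with STAR and featureCounts on miRBase, while the labels name Bowtie2 as the aligner. The counting of reads with several alignments is not stated. Titles gave the groups and replicate numbers, and nothing says whether replicates were separate cultures, so p-values measure the spread between these libraries. Replicates differed by more than counting noise (chi-square per degree of freedom 22.2 to 112). The count test was edgeR 4.0.16 under R 4.3.3 (TMM, default filter by group, robust quasi-likelihood F test, no replicate block) and arm ratios with limma 3.58.1, with Benjamini-Hochberg adjustment over all features and a threshold of 0.05. Both steps were run on simulated counts with the same dispersion for every miRNA and changes balanced up and down. These settings are simpler than the libraries here, so no error rate is drawn from them. DESeq2 1.42.0, limma-voom, other scalings, filters, offsets and omitted libraries were alternatives. The named miRNAs were the members, miR-25, the seed relatives with their other arms and the 3 most similar profiles per member. The neighbours of miR-93 in the order of arm shifts were also named. The members and lists were chosen with earlier results of these data known. Fits made on 5 libraries are named where used.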

Additional observations from a re-analysis of the deposited data

How the results depend on the processing

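The calls of miR-93-5p and miR-93-3p kept their direction and their side of the threshold under every alternative. The log2 ratio of miR-106b-5p and the arm shift of miR-106b, from which no call is drawn, kept their direction wherever a value was given. The counts of enriched, depleted and arm-shifted features stayed within 1.5 times the reported ones. miR-106b-5p gave no ratio, and its hairpin no arm shift, where at least 10 counts in every library were required. The log2 ratios ran from -5.95 to -4.63 for miR-106b-5p, from -2.45 to -1.56 for miR-93-5p and from -2.27 to -1.41 for miR-93-3p. The summed seed family, at -2.66, is left out of these ranges, since it holds other miRNAs and does not test either 5p arm alone. The arm shift of miR-106b ran from 4.66 to 5.79.

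miR-106b-3p passed the threshold as enriched when scaled by library size alone (0.72) or by library sizes that left out the 10 most abundant miRNAs (0.63), where the median of all miRNAs rose by 0.55 and 0.45. It changed direction with no filter (-0.11), as the miRNAs tested in both fits moved by a median of -0.28, and leaving out a library in turn gave -0.13 to 0.19. For the arm shift of miR-93 the same omissions gave -0.012 to 0.44, with the lowest value without m7G-RIP replicate 1, and no value passed the threshold. Depth limits miR-106b-5p, with at most 12 counts in an m7G-RIP library.

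Pairing of libraries by replicate number was not assumed, since deviations from the group means correlated at -0.0433, -0.101 and 0.0641 for numbers 1, 2 and 3 over all miRNAs, and at 0.0734, 0.0784 and 0.0984 over the 306 with a mean of at least 100 counts, in neither case over 0.1. With the replicate number as a block the log2 ratios were -5.23, 0.17, -2.13 and -1.97 for miR-106b-5p, miR-106b-3p, miR-93-5p and miR-93-3p. The arm shifts were 5.37 for miR-106b and 0.18 for miR-93. No call on miR-106b-3p, on the miR-93 arms or on the arm shift of miR-93 changed.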
